A study of Mus musculus with 25 samples.

Results

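The genes described here are the very long protein-coding genes of the mouse: the 221 RefSeq genes whose bodies, measured as end minus start on the mm10 build, span 500 kb or more, with symbols starting Gm and the gene Rora left out. They are 221 of the 21627 protein-coding genes on chromosomes 1 to 19 and X, or 1.02% of them. Their bodies together cover 187.9 Mb, which is 7.22% of the 2603 Mb spanned by the peak lists and genes. The median body was 732 kb, against 17.0 kb for the other protein-coding genes, and 59 bodies exceeded 1 Mb. The 5 longest were Dmd (dystrophin, 2390 kb, chromosome X), Ptprd (a receptor tyrosine phosphatase, 2271 kb, chromosome 4), Cntnap2 (a neurexin-family adhesion protein, 2241 kb, chromosome 6), Lsamp (a limbic adhesion protein, 2197 kb, chromosome 16) and Lrp1b (a lipoprotein receptor relative, 2058 kb, chromosome 2). The shortest was Edil3, at 501.8 kb. Of the 221 bodies, 36 contained the body of at least 1 other protein-coding gene, and 2 overlapped each other.

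Very long genes are made almost entirely of intron. Many of them encode adhesion proteins, ion channels, guidance receptors and scaffolds that are best known from neurons, and several lie in common fragile sites, where replication is late and slow. CTCF is a zinc-finger protein that binds insulators and halts the cohesin ring during loop extrusion. SMC1 is a core subunit of that ring, and NIPBL is the factor that loads it and drives extrusion. H3K27ac is the histone mark of active promoters and enhancers. TCF-1 is an HMG-box transcription factor required for early T cell development.

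The study asked how TCF-1 takes part in reorganising the folding of the genome, and the data here are 25 lists of ChIP-seq peaks. In the fibroblast arm, NIH-3T3 cells (a line of mouse embryonic fibroblasts) were either untreated or had TCF-1 induced. CTCF was profiled in 2 lists of each state, SMC1 in 1 list of each state and TCF-1 in 1 list of induced cells. In the T cell arm, Scid.adh cells (a thymic lymphoma line resembling the double-negative 3, or DN3, stage) carried an empty vector, and were also called wild type in their titles, or were TCF1 KO, that is, lacked TCF-1. CTCF, SMC1, NIPBL and H3K27ac were profiled in 2 lists of each DN3 state, and TCF-1 in 2 lists of empty vector cells. Untreated fibroblasts and knockout DN3 cells were therefore the states without TCF-1, while induced fibroblasts and empty vector cells had it. The sources used here do not say whether the knockout line was 1 clone, how TCF-1 was delivered, or whether replicates were separate cultures. The p-values therefore measure only the spread between these lists, which may be technical. In the test used here (limma) that spread is shared between genes with like peak numbers, so a p-value does not measure 1 gene's own lists alone. All cells of an arm belong to 1 established line.

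List lengths differed between states and between replicates, from 4978 peaks in a DN3 TCF-1 list to 105033 in the SMC1 list of untreated fibroblasts. The lists of induced fibroblasts held 64645 and 68306 CTCF peaks, against 38369 and 41236 in untreated cells. In DN3 cells the knockout lists were the longer ones for CTCF (55149 and 62353 against 42214 and 53729) and for SMC1 (88886 and 96416 against 70438 and 77587). NIPBL lists ranged from 9206 to 23948 peaks and H3K27ac lists from 36540 to 42180. The starts or ends of 9 of 10 markers of DN3-stage cells carried H3K27ac in all 4 DN3 lists, against 2 of 10 fibroblast markers and 1 of 4 markers each of B cells, myeloid cells and neurons. In the fibroblast TCF-1 list all 10 fibroblast markers had a peak there, as did 1 of the 10 DN3 markers. Read depth is unknown, because a peak list gives no read counts, and depth, enrichment and binding cannot be told apart as sources of a longer list.

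Every antibody left the very long genes sparsely marked. Over the 4 fibroblast CTCF lists, the bodies of the 221 genes held 1032, 1120, 2071 and 1970 peaks (untreated, then induced), between 2.69% and 3.05% of each list, for 7.22% of the span. The density in their bodies was 0.824 ± 0.292 peaks per 100 kb (SD, n = 4 lists), against 2.14 ± 0.620 in the rest of the genome. The ratio of the member density to that of the rest was 0.380 ± 0.027 (SD, n = 4). In DN3 cells the same ratio for CTCF was 0.372 ± 0.0331 (SD, n = 4), so the ratios of the lines differed by less than the spread between lists.

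For SMC1 the ratio was 0.465 ± 0.0201 in fibroblasts (SD, n = 2 lists), where the 2 lists gave 0.479 untreated and 0.451 induced. In DN3 cells it was 0.346 ± 0.0423 (SD, n = 4), with 0.329 and 0.296 in the empty vector lists and 0.367 and 0.392 in the knockout lists. All 4 DN3 values lay below both fibroblast values. H3K27ac gave 0.391 ± 0.0392 (SD, n = 4), with 0.346 and 0.370 in the empty vector lists and 0.415 and 0.431 in the knockout lists. The sparsest marking was by NIPBL and TCF-1 in DN3 cells. NIPBL gave 0.170 ± 0.0560 (SD, n = 4) and DN3 TCF-1 gave 0.186 ± 0.0409 (SD, n = 2), which overlapped. The fibroblast TCF-1 list gave 0.408, with a 95% exact binomial interval of 0.385 to 0.432 that covers counting error only. These ratios are sums over the chosen genes and carry no test.

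The low density was the end of a steady decline with body length. For fibroblast CTCF the ratio fell from 2.52 in the bodies of the 11653 genes under 20 kb to 1.79 at 20 to 100 kb, 1.20 at 100 to 250 kb, 0.774 at 250 to 500 kb and 0.380 in the very long genes. The decline was steeper for TCF-1 in DN3 cells, from 6.03 under 20 kb through 2.14, 0.980 and 0.389 to 0.186. NIPBL followed a like course, from 6.32 to 0.170. H3K27ac declined less steeply than these, from 3.24 to 0.391. The plot of density by body length shows this order in every panel. Genes on either side of the boundary varied. Just above it, Edil3, a secreted integrin ligand, had no peak in any of the 18 DN3 lists. Just below it, Dnm3, a dynamin of 495871 bp, held between 8.67 and 10.3 H3K27ac peaks per 100 kb. The other neighbours held little, with no H3K27ac peak in Dock1 and Samd12 above the boundary or Lrrc7 below it, and 0.202 to 0.405 peaks per 100 kb in Cacna1e below it.

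Peaks inside the very long genes lay away from gene starts. In the DN3 TCF-1 lists 6.67% and 3.41% of the members' peaks had their midpoint within 1 kb of an annotated start, against 53.7% and 49.3% of the peaks elsewhere. For H3K27ac the shares were 1.15 to 1.77% inside the members and 15.8 to 17.7% elsewhere, and for NIPBL 7.18 to 18.7% and 30.1 to 54.3%. Fibroblast TCF-1 gave 4.11% against 20.8%. For CTCF the shares were 1.52 to 2.52% against 7.47 to 9.61% in fibroblasts and 0.899 to 1.29% against 8.22 to 9.85% in DN3 cells. Starts take up less of the sequence of a longer body, and the part of this in the shares was not tested.

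The bodies of the 177 members with a start in the RefSeq promoter table were divided into 10 equal segments from start to end. They carried more CTCF in the last segment than in the first, NIPBL the reverse, and H3K27ac near equal shares in both. The last segment held 16.3% of the members' CTCF peaks in fibroblasts and 15.7% in DN3 cells, against 12.2% and 11.4% in the first segment. Genes of 100 to 500 kb leaned the other way in fibroblasts, with 15.1% of CTCF peaks in the first segment and 12.2% in the last. H3K27ac in the members stood at 12% in the first segment and 12.2% in the last, whereas in genes of 100 to 500 kb it was 16.8% and 7.09%. Between its ends the member share was uneven, with 6.81% in segment 7. NIPBL put 18.9% of member peaks in the first segment and 12.7% in the last, against 37.7% in the first segment of the shorter class. Its member share was 4.75% in segment 5 and 14.6% in segment 9, so it did not fall steadily from the start. For DN3 TCF-1 the first segment held 6.25% and the last 14%, against 45.2% and 5.27% in genes of 100 to 500 kb. The member shares were highest in segments 9 (22.3%) and 2 (17.2%), and the first held 2.70% in 1 list and 9.80% in the other. Few peaks stand behind these shares. All members together held 60 and 88, of which 10 genes held 78.3% and 79.5%.

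Peaks in the members were also narrower than elsewhere. Their median width was 901 to 1087 bp for H3K27ac, against 1356 to 1581 bp in the rest of the genome. For CTCF it was 345 to 374 bp against 365 to 408 bp. The authors' own fold enrichment of each peak, deposited for H3K27ac and NIPBL only, had a median of 2.96 to 3.02 for H3K27ac peaks in members and 3.30 to 3.38 elsewhere, and of 3.19 to 3.33 against 2.94 to 3.50 for NIPBL.

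Where members were bound, the share of peaks that overlapped another antibody was lower than elsewhere in most pairs, and most clearly for TCF-1 with CTCF. In untreated fibroblasts 95.2% and 92.0% of the members' CTCF peaks overlapped an SMC1 peak, against 96.2% and 94.5% elsewhere. In induced fibroblasts the shares were 71.0% and 71.5%, against 77.5% and 78.8%, so they were lower after induction in the rest of the genome too. In DN3 cells the share of CTCF peaks overlapping SMC1 was 75.6 to 86.9%, against 85.9 to 92.5% in the rest. Of the members' DN3 TCF-1 peaks, 80.0% and 75% overlapped SMC1 and 85.0% and 83.0% overlapped H3K27ac, against 96.4% and 94.4%, and 93.1% and 90.9%, elsewhere. CTCF overlapped 31.7% and 17.0% of those TCF-1 peaks, against 60.1% and 56.3%. In fibroblasts 87.2% of the members' TCF-1 peaks overlapped SMC1 and 19.5% overlapped CTCF, against 91.1% and 33.2% elsewhere.

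The 221 genes differed widely among themselves. For CTCF the marking was spread, with the 10 genes of most peaks holding 14 to 16.2% of all member peaks in a list. For H3K27ac the 10 leading genes held 58.3 to 62.3%, and for TCF-1 in DN3 cells 78.3% and 79.5%. No peak in any list of the antibody was found in 4 members for fibroblast CTCF (Naaladl2, Pcdh11x, Iqcm and Aff2), 9 for DN3 CTCF, 16 for fibroblast SMC1, 7 for DN3 SMC1, 97 for fibroblast TCF-1, 103 for NIPBL, 120 for H3K27ac and 192 for DN3 TCF-1. A gene without a listed peak may still be bound below the threshold at which peaks were called.

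CTCF was densest in fibroblasts in Camta1, a calmodulin-binding transcription activator, at 4.36 ± 1.62 peaks per 100 kb (SD, n = 4 lists). Ank2, the scaffold ankyrin-B, followed at 4.06 ± 1.40, then Nav2, a neuron navigator of the cytoskeleton, at 3.88 ± 1.16, Kalrn, a guanine nucleotide exchange factor, at 3.52 ± 0.920, and Atrnl1 at 3.30 ± 0.833. In DN3 cells Smyd3, a lysine methyltransferase, led at 4.55 ± 1.17, followed by Nav2 at 4.30 ± 0.773, Rabgap1l at 4.05 ± 0.575, Kalrn at 3.81 ± 0.358 and Ank2 at 2.98 ± 0.295. In fibroblasts neighbours in this order differed by less than their spread over lists, and in DN3 cells Ank2 stood below Kalrn by more than that spread. Nav2, Kalrn and Ank2 stand among the leading 5 in both lines.

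SMC1 in fibroblasts was densest in Rad51b, a protein of homologous recombination (chr12:79297282-79848260 on mm10), at 14.1 ± 1.41 peaks per 100 kb (SD, n = 2 lists). Foxp1, a forkhead factor, had 12.6 ± 1.30, Lpp, a LIM-domain protein of focal adhesions, 11.9 ± 1.30, Cacna1c, the pore subunit of an L-type calcium channel, 11.2 ± 1.28, and Arhgap26 10.1 ± 0.365. The fibroblast TCF-1 list was led by Rad51b at 7.26 peaks per 100 kb, and Lpp (4.67), Foxp1 (4.35) and Cacna1c (4.26) were again among the leading 5. Over the 221 genes, SMC1 and TCF-1 densities in fibroblasts ran together, with a Spearman rank correlation of 0.90. That value describes genes of the same lists, which share body length and list depth, and is no test.

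In DN3 cells the leading group changed only in part. Lpp and Cacna1c stood among the 5 densest for SMC1 in both lines. Cacna1c held 8.24 ± 2.53 SMC1 peaks per 100 kb in DN3 cells (SD, n = 4 lists). SMC1 was densest in Esrrg, an orphan nuclear receptor (chr1:187608510-188214885), at 19.3 ± 5.14 peaks per 100 kb (SD, n = 4 lists), Lpp (chr16:24393350-24992578) at 18.8 ± 10.3, Smyd3 (chr1:178951960-179518053) at 14.9 ± 2.70 and Thsd7b, a membrane protein with thrombospondin repeats (chr1:129273190-130219278), at 10.4 ± 3.51. H3K27ac was led by Lpp at 14.9 ± 1.10, Exoc4, an exocyst subunit (chr6:33249090-33973979), at 14 ± 2.24, Esrrg at 12.6 ± 0.474, Hs6st3, a heparan sulfate sulfotransferase, at 11 ± 3.89 and Thsd7b at 10.4 ± 0.477. NIPBL was densest in Lpp at 2 ± 1.48 and Smyd3 at 1.94 ± 0.692. The large SDs of SMC1 run over the lists of both states, and lists of the same state also differed. Esrrg held 152 and 79 SMC1 peaks in the empty vector lists and 107 and 129 in the knockout lists. Thsd7b held 119 and 50, against 104 and 121. In both genes the first empty vector list was well above the second, and the groups overlapped.

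In Lpp the SMC1 numbers of the states did not overlap, although the difference did not pass the test given further on. It held 63 and 60 SMC1 peaks in the empty vector lists, and 142 and 185 in the knockout lists. Its CTCF peaks were few, at 6 and 6 against 10 and 7, and its H3K27ac peaks were 82 and 90 against 88 and 98. In fibroblasts Lpp held 77 SMC1 peaks untreated and 66 induced. Rad51b, by contrast, held 83 and 72 SMC1 peaks in fibroblasts and only 15 to 25 in DN3 cells, where it held 14 to 17 H3K27ac peaks. Camta1 had 23, 25, 49 and 43 CTCF peaks in fibroblasts and 12, 16, 26 and 22 in DN3 cells, with no H3K27ac peak midpoint in its body in any of the 4 lists.

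**Figure D1:**
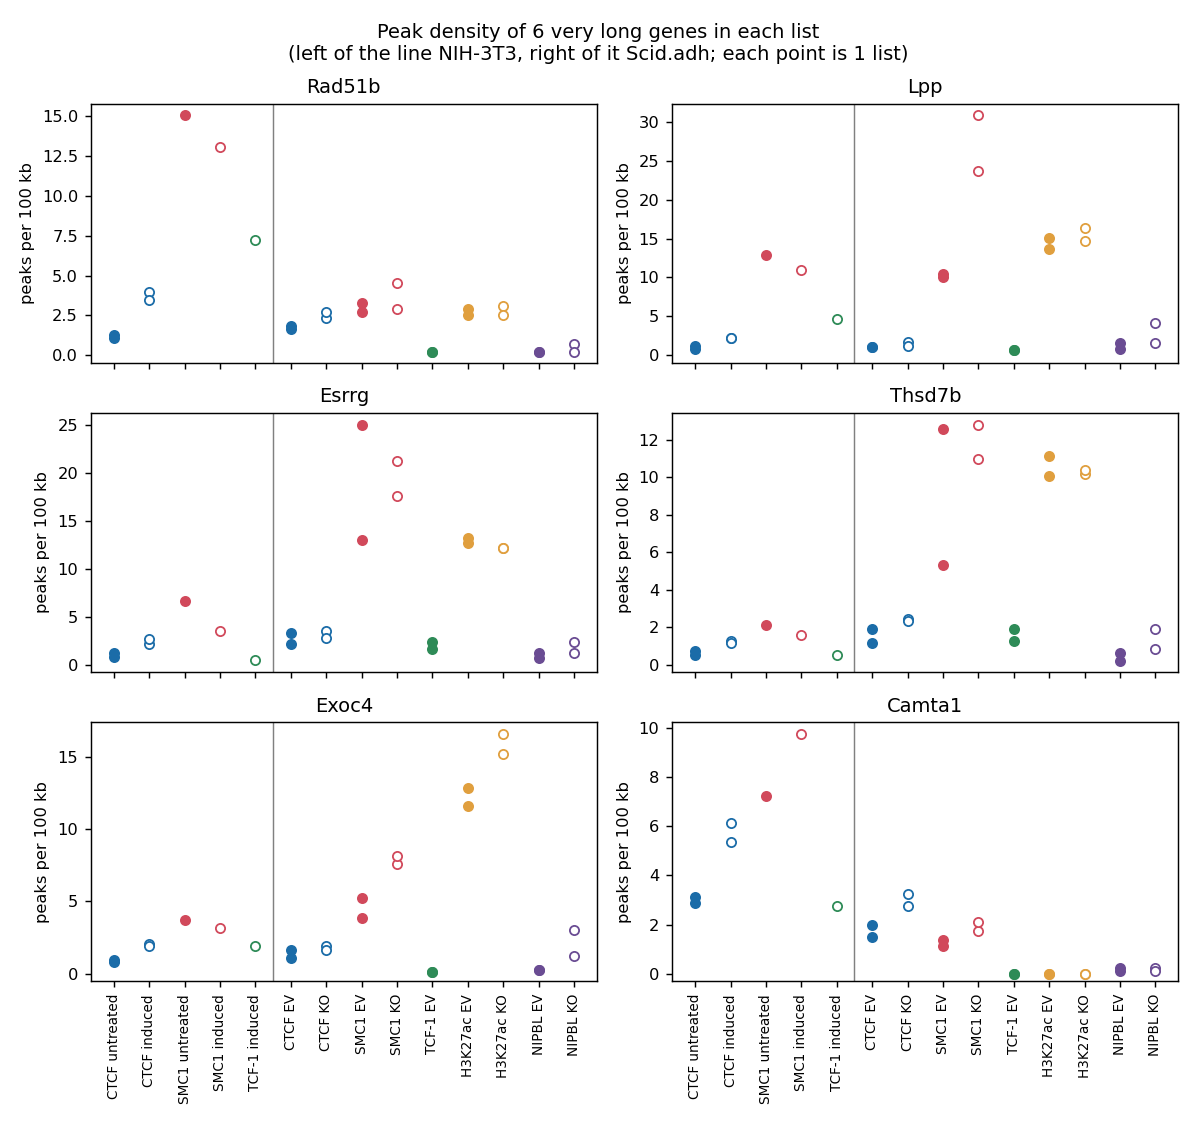
Peaks per 100 kb of body (vertical axis) in each of the 25 lists (horizontal axis) for Rad51b, Lpp, Esrrg, Thsd7b, Exoc4 and Camta1, with 1 panel per gene. Filled points are untreated or empty vector lists and open points are induced or knockout lists. In the Lpp panel the knockout SMC1 lists, with 142 and 185 peaks in the body, stand above all its other lists.

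At the other extreme lay long stretches without CTCF. Lrp1b had no CTCF peak in any of the 8 lists over 1593 kb of its body (chr2:41060921-42653598). Naaladl2, a peptidase-like membrane protein, had none over its entire 1346 kb (chr3:23798103-25144149). Dmd had a free stretch of 926 kb, Il1rapl1, a synaptic interleukin receptor relative, one of 915 kb, and Lrrc4c, a netrin-G ligand, one of 758 kb. In DN3 cells the whole body of Il1rapl1, 1375 kb, was free of CTCF peaks. Naaladl2 still held 1 SMC1 peak in each knockout list and 1 H3K27ac peak in each of the 4 lists.

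TCF-1 peaks in DN3 cells were found in few members. The bodies held 60 and 88 TCF-1 peaks in all, and 20 of the 221 genes had at least 1 in both lists. Thsd7b held 12 and 18, Esrrg 10 and 14, Ptprk, a receptor phosphatase, 6 and 11, Smyd3 5 and 10, Lpp 4 and 4, and Lrmda 2 and 3. Of these, Thsd7b, Esrrg and Smyd3 all lie on chromosome 1. In the single list of induced fibroblasts the same 6 genes held 5, 3, 6, 9, 28 and 35 peaks. The fibroblast list is several times longer, so these numbers stand side by side without a test.

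The starts of the members were seldom occupied. The RefSeq promoter table (GRCm38.p6, windows of 250 bases before to 50 after a start) held 288 promoters of 177 members. Of these, 3 overlapped a peak in both DN3 TCF-1 lists: those of Cacna1c (chr6:119108496-119108745, minus strand), Ctnna3, an alpha-catenin (chr10:63429848-63430097, plus strand), and Exoc4 (chr6:33248878-33249127, plus strand). The 250 bases before each start are printed with CG pairs in capitals, because these are the only member promoters that DN3 TCF-1 occupied in both lists, and they differ widely in CG content:
Cacna1c: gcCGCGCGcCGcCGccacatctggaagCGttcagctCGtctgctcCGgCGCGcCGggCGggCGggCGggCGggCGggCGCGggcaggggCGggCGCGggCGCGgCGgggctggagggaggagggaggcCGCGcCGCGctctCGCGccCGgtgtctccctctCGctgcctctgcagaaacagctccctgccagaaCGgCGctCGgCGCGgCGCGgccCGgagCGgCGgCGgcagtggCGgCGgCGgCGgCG
Ctnna3: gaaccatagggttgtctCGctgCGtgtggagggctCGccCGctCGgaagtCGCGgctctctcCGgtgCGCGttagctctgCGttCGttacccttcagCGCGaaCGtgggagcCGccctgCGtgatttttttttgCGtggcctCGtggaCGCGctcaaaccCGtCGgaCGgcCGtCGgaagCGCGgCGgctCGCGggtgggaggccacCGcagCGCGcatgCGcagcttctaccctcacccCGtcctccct
Exoc4: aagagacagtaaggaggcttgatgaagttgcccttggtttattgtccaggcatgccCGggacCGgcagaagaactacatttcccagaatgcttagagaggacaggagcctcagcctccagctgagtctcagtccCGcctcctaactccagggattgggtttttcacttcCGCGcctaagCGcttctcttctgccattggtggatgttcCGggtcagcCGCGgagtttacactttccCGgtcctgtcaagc
The Cacna1c stretch holds 48 CG pairs, that of Ctnna3 36 and that of Exoc4 10. The median was 10 over all 21044 promoters in the table, 9 over the member promoters and 21 over the 2027 promoters with a peak in both DN3 TCF-1 lists.

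None of these 3 windows holds the core TCF-1 motif, searched as CTTTGA or its reverse complement TCAAAG in the 300 bases. That core stood in 14.4% of all promoters, 13.2% of member promoters and 10.4% of those occupied in both DN3 lists. In the fibroblast list 39 of the 288 member promoters, of 37 members, overlapped a TCF-1 peak, as did 7655 of all 21044 promoters. The core stood in 5 of the 39 (12.8%). To set beside the starts without the core, 3 of these 5 are printed with the core in capitals, chosen as Diaph2, a formin (chrX:129749492-129749741, plus strand), Mctp1, a calcium-binding membrane protein (chr13:76579347-76579596, plus strand), and Zfhx3, a zinc-finger homeobox factor (chr8:108714394-108714643, plus strand):
Diaph2: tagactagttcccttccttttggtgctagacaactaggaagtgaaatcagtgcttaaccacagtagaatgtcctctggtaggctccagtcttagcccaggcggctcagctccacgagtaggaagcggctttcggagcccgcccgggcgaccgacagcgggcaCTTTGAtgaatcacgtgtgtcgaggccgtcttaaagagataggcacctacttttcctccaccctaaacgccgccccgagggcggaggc
Mctp1: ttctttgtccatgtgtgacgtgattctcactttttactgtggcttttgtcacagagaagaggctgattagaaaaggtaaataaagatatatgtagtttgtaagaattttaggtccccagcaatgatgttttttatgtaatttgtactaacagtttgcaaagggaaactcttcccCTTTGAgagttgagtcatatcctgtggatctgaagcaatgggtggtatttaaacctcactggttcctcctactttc
Zfhx3: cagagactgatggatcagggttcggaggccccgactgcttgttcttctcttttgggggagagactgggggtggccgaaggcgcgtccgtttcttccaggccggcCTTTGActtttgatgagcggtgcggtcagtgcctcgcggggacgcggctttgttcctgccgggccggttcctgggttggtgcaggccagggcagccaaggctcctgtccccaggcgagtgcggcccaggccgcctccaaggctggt
Each holds the core once. A match describes these letters only, and a window without one says nothing about where TCF-1 binds.

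An acetylated start set a subset apart in DN3 cells. In both empty vector lists H3K27ac covered the start of 24 of the 177 members (13.6%), against 713 of 1685 genes of 100 to 500 kb (42.3%). Among the 24 were Lpp, Esrrg, Exoc4, Foxp1, Rad51b, Camta1, Cacna1c, Ryr2 and the lymphocyte signalling genes Dock2 and Arhgap15. The median density of SMC1 in DN3 cells was 2.16 peaks per 100 kb over these 24 genes and 0.619 over the other 153. For CTCF in DN3 cells the medians were 1.17 and 0.694, and for fibroblast SMC1 3.00 and 1.15. Thsd7b and Hs6st3, although rich in H3K27ac within the body, were not among the 24. A start counts as acetylated where a peak overlaps the 1 kb to either side of it, and the peak at Camta1 has its midpoint outside the body.

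With TCF-1 induced in fibroblasts, most of the very long genes tested held more CTCF peaks as listed, and 38 of the 221 had too few peaks to test. As listed, the numbers in both induced lists exceeded both untreated numbers in 168 of the 183 members tested, against 61.1% of all genes tested. Because the induced lists were longer everywhere, each list was scaled to the mean list length before the test. On that scale 25 of the 183 members rose (adjusted p under 0.05, limma with Benjamini-Hochberg adjustment), where 8.66% of all 5426 genes tested rose. At the same time 5 members were called lower, where 16.3% of all genes were. The members tested held more peaks per gene, with a median of 7.25 against 3.25, and the part of this in the shares was not tested.

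Among the members that rose, Tmem132d, a neural membrane protein, had 0 and 0 peaks untreated and 7 and 6 induced, a log2 difference of 2.63 ± 0.10 (SE; limma adjusted p = 0.00367). Its untreated lists were both empty, so the difference depends on the pseudocount of 1 peak. Sdk1, a sidekick adhesion protein, had 1 and 1 against 8 and 7, Tenm3, a teneurin, 1 and 1 against 6 and 8, and Nell1, a secreted signalling protein, 1 and 1 against 7 and 5. Rbms3, an RNA-binding protein, had 5 and 7 against 28 and 25, and Dscam, a neural adhesion molecule, 5 and 5 against 15 and 15. Rad51b had 6 and 7 against 22 and 19. In each of these genes the states did not overlap, as the plot of single genes by state shows. The 5 called lower had not lost peaks as listed. Adgrl3, Kcnd2 and Ralyl held 2 peaks in all 4 lists, A830018L16Rik held 4 and 3 against 3 and 3, and Rbfox1, a splicing factor, 10 and 12 against 14 and 13. After scaling to the longer induced lists they stood lower. Without scaling, 73 members were called higher and 0 lower, and with lists trimmed to equal length 11 and 5. Over all genes tested the corresponding calls were 470 and 885 scaled, 1308 and 21 without scaling, and 146 and 146 at equal length. Calls numbered 17 without the first induced list, 48 without the first untreated list and 59 without the second.

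**Figure D2:**
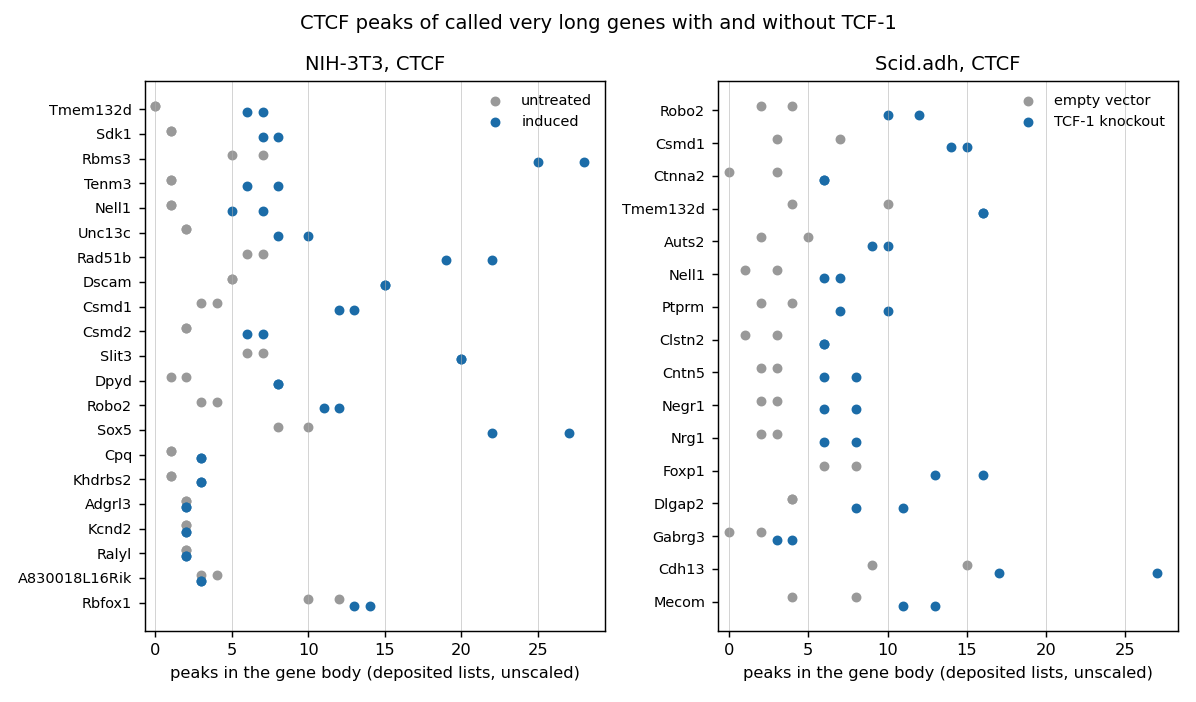
CTCF peaks per list, as listed (horizontal axis), in very long genes called by limma after scaling (vertical axis), in fibroblasts without and with induced TCF-1 and in DN3 cells with and without TCF-1. Each point is 1 list; in fibroblasts Rbms3 goes from 5 and 7 to 28 and 25, and the 5 genes called lower hold nearly equal numbers.

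The loss of TCF-1 in DN3 cells also came with more CTCF peaks in the members. After scaling, 28 of the 184 members tested rose in the knockout, where 2.18% of all 5591 genes tested did, and none was called lower, where 0.161% of all genes were (limma with Benjamini-Hochberg adjustment). Robo2, a Slit receptor in axon guidance, went from 2 and 4 peaks to 12 and 10, a log2 difference of 1.39 ± 0.19 (SE; limma adjusted p = 8.08e-10). The SEs and p-values of this comparison rest on the spread shared by genes with like peak numbers, not on the lists of a single gene. Csmd1, a complement-regulating adhesion protein, went from 3 and 7 to 15 and 14, Tmem132d from 4 and 10 to 16 and 16, Auts2, a neurodevelopmental chromatin regulator, from 2 and 5 to 10 and 9, and Ctnna2, an alpha-catenin, from 0 and 3 to 6 and 6. Ptprm, a receptor phosphatase, went from 2 and 4 to 10 and 7, and Nell1 from 1 and 3 to 7 and 6. In all of these both knockout numbers exceeded both empty vector numbers, and in each the first empty vector list was the lowest. The number called was 11 without that list, 4 without the first knockout list and 5 without the second. Without scaling 11 members were called, all higher, against 296 higher and 17 lower over all genes, at equal list length 9 were higher and 3 lower, and without the filter on low peak numbers 0 were called. Median peaks per gene were 6.75 in the members and 3.25 over all genes tested.

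The members that gained CTCF peaks in the 2 lines overlapped, although TCF-1 was gained in one and lost in the other. Of the 25 called higher in induced fibroblasts and the 28 called higher in knockout DN3 cells, 8 were shared, which is 32.0% of the first and 28.6% of the second: Csmd1, Csmd2, Nell1, Rbms3, Robo2, Slit3, Stpg2 and Tmem132d. In both cases the higher state was the one with the longer lists. Over all members tested, 13.7% rose in induced fibroblasts and 15.2% in knockout DN3 cells, against 8.66% and 2.18% of all genes tested. The overlap over all genes was not counted, and the overlap of the members was not tested.

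SMC1 in DN3 cells gave few calls anywhere. Nell1 was the only member to rise, from 0 and 0 peaks to 4 and 7, a log2 difference of 2.53 ± 0.20 (SE; limma adjusted p = 0.0132), where 0.0410% of all 7315 genes tested rose. Its empty vector lists were both empty, so the difference depends on the pseudocount, and the call was lost without scaling (limma adjusted p = 0.0944) and without the filter (limma adjusted p = 0.106). None of the 180 members tested was called lower, where 0.0137% of all genes were, and at an unadjusted p under 0.05 the limma test marked 49 members and 846 genes in all. Lpp, with its 63 and 60 against 142 and 185 peaks, had a log2 difference of 1.06 ± 0.18 (SE) and did not pass (limma adjusted p = 0.117). Tmem132d, at 0 and 1 against 8 and 14, did not pass either (limma adjusted p = 0.0841). Cdh18, a cadherin, held fewer in the knockout, 4 and 3 against 1 and 1, and did not pass (limma adjusted p = 0.105). As listed, both knockout numbers exceeded both empty vector numbers in 121 of the 180 members, against 26.7% of all genes tested. The members held more peaks per gene, with a median of 6.5 against 3.5, and the knockout lists were the longer ones. The part of these in the shares was not tested. Calls were more numerous without any 1 list, at 24 and 36 without the first or second empty vector list and 8 and 7 without the first or second knockout list.

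NIPBL peaks were too few in most members to test, and 36 of the 221 passed the minimum mean of 2 peaks. Of these, 4 rose in the knockout after scaling, where 1.25% of all 962 genes tested rose, and none was called lower, where 0.104% of all genes were (limma with Benjamini-Hochberg adjustment). Exoc4 went from 2 and 2 peaks to 22 and 9, a log2 difference of 1.82 ± 0.37 (SE; limma adjusted p = 0.0014). Pard3, a cell polarity scaffold, went from 0 and 3 to 12 and 5, Mgat4c, a glycosyltransferase, from 0 and 0 to 10 and 4, and Lrmda, a leucine-rich protein of melanocyte differentiation, from 3 and 4 to 23 and 9. In each gene the first knockout list, also the longest NIPBL list at 23948 peaks, was far above the second. Without scaling, or at equal list length, no member was called. Without that list no member was called either, without the second knockout list 2 were, and without the second empty vector list 15 were.

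H3K27ac moved in both directions. Of 57 members tested, 5 rose in the knockout, where 1.80% of all 3006 genes tested did, and 2 fell, where 2.63% did (limma with Benjamini-Hochberg adjustment). Exoc4 rose from 84 and 93 peaks to 110 and 120, a log2 difference of 0.50 ± 0.06 (SE; limma adjusted p = 0.0197). Hs6st3 rose from 46 and 68 to 100 and 107, Lrmda from 56 and 67 to 85 and 84, Kalrn from 14 and 17 to 24 and 24, and Ptprt, a receptor phosphatase, from 7 and 5 to 16 and 22. Foxp1, which lymphocytes use, fell from 23 and 24 to 11 and 12, a log2 difference of -0.85 (limma adjusted p = 0.0251), and Grik2, a kainate receptor subunit, fell from 4 and 5 to 1 and 1. No group overlapped the other in these 7 genes. Exoc4 and Lrmda, called for both NIPBL and H3K27ac, are 50% of the NIPBL calls and 40.0% of the H3K27ac calls. This overlap was not counted over all genes and was not tested. Without scaling no member was called higher and 3 were called lower, against 107 and 155 of all genes. The number called was 3 without either empty vector list, 20 without the first knockout list and 14 without the second.

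SMC1 in fibroblasts had 1 list per state, so the difference has no replicate check. On the scaled log2 scale no member of 179 was past 2-fold higher in induced cells, where 1.08% of all 8390 genes were, and 3 were past 2-fold lower, where 1.00% were. Auts2 held 9 peaks untreated and 2 induced, Tafa1, a secreted neural protein, 13 and 4, and Adgrl3, a latrophilin, 24 and 10. The median log2 difference was -0.12 over the members and 0.09 over all genes. Without scaling 7 members were past 2-fold lower.

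Counted as sites, regions found only in knockout or only in induced lists lay in the very long genes at a larger share than regions found in every list. Regions found only in untreated or empty vector lists did so for some antibodies, and regions with mixed calls did so as well, so the larger share was not particular to 1 state. In DN3 cells 5.53% of 4427 CTCF regions found in both knockout lists and in no empty vector list lay in members, against 2.61% of regions in all 4 lists. For SMC1 the shares were 4.69% of 10868 and 2.25%, and for H3K27ac 5.13% of 2398 and 2.30%. NIPBL gave 3.03% of 1619 and 0.634%. Regions of both empty vector lists alone gave 0.625% of 320 for CTCF, 2.37% of 1137 for SMC1 and 2.09% of 3979 for H3K27ac, and 1 of 69 for NIPBL (1.45%) lay in a member. Regions with mixed calls gave 3.06% for CTCF, 3.29% for SMC1, 4.17% for H3K27ac and 2.50% for NIPBL. In fibroblasts 3.64% of 15991 CTCF regions of both induced lists alone lay in members, against 2.66% of regions in all 4 lists. Of the 38 CTCF regions of both untreated lists alone, 2 did (5.26%), and of the regions with mixed calls 3.27% did. For fibroblast SMC1, with 1 list per state, the shares were 4.68% of 23568 untreated-only, 3.88% of 13926 induced-only and 3.31% of shared regions. Lpp held 42 of the 510 knockout-only SMC1 regions in members and Lrmda 24. These shares carry no test, and the strength of the peaks was not compared.

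The 2 lines differed in which members carried CTCF. With the state of TCF-1 as a covariate, 39 of 185 members tested were called higher in DN3 cells, where 12.0% of all 5252 genes were, and 49 lower, where 10.8% of all genes were (limma with Benjamini-Hochberg adjustment). Ptprt held 1 CTCF peak in each of the 4 fibroblast lists and 11, 11, 13 and 13 in the DN3 lists, a log2 difference of 2.67 ± 0.15 (SE; limma adjusted p = 4.5e-07). Ryr2, the cardiac ryanodine receptor, held 1, 1, 5 and 3 against 9, 14, 15 and 14. Nrxn3, a presynaptic neurexin, held 7, 7, 11 and 13 against 14, 18, 21 and 18. In the other direction Ppargc1a, a coactivator of mitochondrial genes, held 6, 6, 13 and 12 against 1, 1, 2 and 2, a log2 difference of -2.03 ± 0.16 (SE; limma adjusted p = 1.14e-05). Nbea, a vesicle-trafficking protein, held 6, 8, 19 and 16 against 2, 2, 3 and 3, and Foxp2, a forkhead factor, 5, 6, 8 and 10 against 0, 0, 2 and 2. In the 6 genes named the lines did not overlap as listed. Such separation was found in 12 members higher and 15 lower, against 5.48% and 4.63% of all genes tested. Without scaling 4 members were called higher and 8 lower, against 202 and 175 of all genes.

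SMC1 gave more calls between the lines, and mostly towards fibroblasts. Of 183 members tested, 44 were called higher in DN3 cells, where 25.9% of all 7580 genes were, and 86 lower, where 19.2% of all genes were (limma with Benjamini-Hochberg adjustment). The median log2 difference was -0.40 over the members and 0.17 over all genes tested. Ptprt held 1 and 1 SMC1 peaks in fibroblasts and 14, 15, 26 and 28 in DN3 cells, a log2 difference of 3.56 (limma adjusted p = 2.81e-05). Ryr2 held 3 and 2 against 35, 31, 32 and 31, and Hs6st3 4 and 2 against 34, 16, 61 and 60. Ppargc1a held 46 and 37 against 1, 1, 1 and 2, a log2 difference of -4.04 (limma adjusted p = 2.05e-05). Arhgap24, a GTPase-activating protein, held 44 and 38 against 4, 4, 6 and 6, and Slit3, a guidance ligand, 52 and 48 against 6, 8, 8 and 10. As listed, without scaling, 94 members were lower in all 4 DN3 lists than in both fibroblast lists and 27 were higher, against 27.5% and 18.9% of all genes tested. Without scaling 27 members were called higher and 87 lower, against 1190 and 1620 of all genes, and at equal list length 48 and 73.

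CTCF and SMC1 moved to the same side in many of these genes. Of the 39 members higher in DN3 cells for CTCF and the 44 for SMC1, 27 were shared, or 69.2% and 61.4%. Of the 49 and 86 lower, 48 were shared, or 98.0% and 55.8%. Cdkal1 and Vps13b were higher for CTCF and lower for SMC1, and 0 members went the opposite way. The cells are the same in both assays, and many SMC1 peaks overlap CTCF peaks, so these are not separate observations. For SMC1, 24.0% of all members tested were called higher and 47.0% lower. The overlap of the CTCF and SMC1 calls was not counted over all genes, and that of the members was not tested.

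By function, counts of calls are read against all members tested. In the DN3 knockout 15.2% of members and 2.18% of all genes rose for CTCF, and in induced fibroblasts 13.7% and 8.66%. Between the lines 21.1% of members were higher in DN3 cells and 26.5% lower for CTCF, and 24.0% and 47.0% for SMC1. Over all genes tested the shares between the lines were 12.0% and 10.8% for CTCF, and 25.9% and 19.2% for SMC1. No group of genes was tested against another. The list of transcription, chromatin and RNA factors also holds members of other function, such as Rad51b, Lrmda and Cdk14. Of its members, 21 were tested for SMC1. In DN3 cells 3 were higher and 14 lower, among them Ppargc1a, Mecom, Zbtb20, Zfhx3, Foxp2, Foxp1, Camta1 and Rad51b. The median SMC1 density of the members of this list in fibroblasts was 5.08 peaks per 100 kb, the highest of the 10 lists of genes compared. In the DN3 knockout 6 of 19 gained CTCF peaks: Auts2, Foxp1, Mecom, Camta1, Hdac9 and Rbms3.

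Synaptic and neural adhesion genes had the lowest median SMC1 density of the 10 in fibroblasts, at 0.289 peaks per 100 kb, while in DN3 cells cadherins and catenins were lower, at 0.359 against 0.381. Of the 22 tested for CTCF in DN3 cells, 6 rose in the knockout (Csmd1, Csmd2, Csmd3, Negr1, Cntn5 and Cntnap5c) and none was called lower. Over all members tested 15.2% rose there, and 2.18% of all genes. In induced fibroblasts 5 of 23 rose, among them Tenm3, Dscam and Csmd1, and 1 was called lower. Over all members tested 13.7% rose there, and 8.66% of all genes. Between the lines, 7 of 22 were higher in DN3 cells for SMC1, including Nrxn3 and Cntnap2, and 6 were lower. Over all members tested 24.0% were higher and 47.0% lower, and over all genes 25.9% and 19.2%. Of the cadherins and catenins, Ctnna2, Cdh13 and Ctnna3 gained CTCF peaks in the knockout, 3 of 8 tested.

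Ion channels and neurotransmitter receptors were split between the lines, with 5 higher and 5 lower of 14 tested for SMC1 and 6 and 3 of 17 for CTCF. Guidance receptors and receptor phosphatases gave 5 higher and 7 lower for SMC1. For CTCF 4 of 17 rose in the knockout (Robo2, Ptprm, Nrg1 and Slit3), where 15.2% of all members and 2.18% of all genes tested did. Scaffold genes gave 2 higher and 7 lower of 20 for CTCF and 5 and 9 of 20 for SMC1. Signalling genes gave 4 higher and 8 lower of 20 for CTCF and 4 and 11 of 20 for SMC1. Over all members tested, 21.1% were higher and 26.5% lower for CTCF, and 24.0% and 47.0% for SMC1. Over all genes tested the shares were 12.0% and 10.8%, and 25.9% and 19.2%. The scaffold counts for SMC1 lay near the shares over all members. Genes of recurrent fragile sites, known for breaking under replication stress, gave 7 higher and 9 lower for SMC1. For the guidance and fragile site genes the number tested for SMC1 is not given here. Their SMC1 counts therefore cannot be read against the 24.0% higher and 47.0% lower over all members tested.

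Genes used in lymphocytes and genes used in fibroblasts were compared with their shorter relatives in the same lists. Of the 12 very long genes used in lymphocytes, 4 were higher in DN3 cells for SMC1 and 7 lower, whereas of 26 relatives under 500 kb, 19 were higher and 4 lower. The median SMC1 density in DN3 cells was 2.27 peaks per 100 kb over the long ones and 7.32 over the relatives, and that of H3K27ac 1.42 and 6.34. Of 21 very long genes used in fibroblasts, 5 were higher in DN3 cells and 12 lower, and of 26 relatives 2 were higher and 18 lower. Over all members tested for SMC1, 24.0% were higher in DN3 cells and 47.0% lower, and over all genes 25.9% and 19.2%. The lists were not tested against these shares. These lists overlap, since Foxp1, Exoc4, Rad51b and others stand in more than 1 of them. The lymphocyte and fibroblast lists both hold Ptprk and Exoc4, higher in DN3 cells for SMC1, and Vps13b, lower.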

How the data were processed

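Chromatin immunoprecipitation followed by paired-end sequencing was done in 2 mouse cell lines. The submitters' processing notes name Bowtie2, MACS2, bedtools and the mm10 build; their versions and settings were not given in the sources used here. Each deposited list gives peak positions, and the H3K27ac and NIPBL lists also give the fold enrichment that the authors deposited per peak, a ratio used here as a description only. Peaks were assigned by midpoint to RefSeq gene bodies. Peak numbers per gene, scaled to the mean length of the lists compared, were tested as log2(peaks + 1) with limma 3.58.1 in R 4.3.3, over all protein-coding genes with a mean of at least 2 peaks, with Benjamini-Hochberg adjustment and a threshold of 0.05. On simulated lists the test recovered 50%, 95% and 20% of 2-fold changes for fibroblast CTCF (5348 genes), DN3 CTCF (5462) and DN3 SMC1 (7100), and 99%, 100% and 92% of 4-fold changes, and called 0, 16 and 2 unchanged genes. The changed genes were drawn only from genes with more peaks than the median member tested (7.25, 6.75 and 6.5 peaks in that order). Recovery at fewer peaks, as in many of the calls named, was therefore not measured. Other steps used Python 3.11.15. The genes and lists were chosen with earlier results of these data known. Genes named are the 5 with most and 3 with fewest peaks per antibody, up to 8 calls per direction, the longest, those at the length threshold, those with TCF-1 in both DN3 lists, and up to 6 per list by length; Lrmda, Hs6st3 and others shown as further examples were picked after their values were seen. Alternatives were scaling, list length, filter, pseudocount, overlap, replicate block, and each list left out.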

Additional observations from a re-analysis of the deposited data

Results flagged for a closer look

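The ratio of CTCF density in the very long genes to that in the rest of the genome moved in opposite directions with TCF-1 in the 2 lines. In fibroblasts the lists with TCF-1 minus those without gave a mean difference of 0.0459, and both induced lists were above both untreated lists. In DN3 cells the difference was -0.0570, and both empty vector lists were below both knockout lists. The difference between the lines was not tested. In each line the state with the higher ratio was the one with the longer CTCF lists, and the part of list length in this was not tested.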

How the results depend on the processing

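The counts of members called depended on the processing in many settings. Without scaling to list length the calls numbered 73 for fibroblast CTCF, 11 for DN3 CTCF, 14 for DN3 SMC1, 0 for NIPBL, 3 for H3K27ac, 12 for CTCF between the lines and, past 2-fold, 7 for fibroblast SMC1. At equal list length they numbered 16 (fibroblast CTCF), 12 (DN3 CTCF, 9 higher and 3 lower), 18 (DN3 SMC1, 16 and 2) and 0 (NIPBL). Without a filter they were 0, 15, 10 and 12 for DN3 CTCF, SMC1, NIPBL and H3K27ac and 53 for CTCF between the lines, with more genes tested. Counting peaks by overlap gave 9 for DN3 SMC1, and a pseudocount of 0.5 peak gave 1 for NIPBL. Leaving out 1 list gave 17 to 59 for fibroblast CTCF, 4 to 34 for DN3 CTCF, 7 to 36 for DN3 SMC1, 0 to 15 for NIPBL, 3 to 20 for H3K27ac, 74 to 85 for CTCF and 93 to 135 for SMC1 between the lines.

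With the replicate number as a block, which the labels do not tie to a shared culture, calls numbered 37, 15, 0, 0 and 15 for fibroblast CTCF, DN3 CTCF, SMC1, NIPBL and H3K27ac. Same-numbered lists had correlations of their deviations of -0.015, -0.13, 0.12, -0.20 and 0.025 in that order, so the numbers show no pairing with 2 pairs each.

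Against the bodies of all other genes, the density ratio was 0.256, 0.307 and 0.274 for CTCF, SMC1 and TCF-1 in fibroblasts, and 0.250, 0.221, 0.102, 0.224 and 0.0881 for CTCF, SMC1, TCF-1, H3K27ac and NIPBL in DN3 cells. Against sequence outside protein-coding genes it was higher, at 0.474 to 0.549, 0.632 to 0.649 and 0.554 over the fibroblast lists. In DN3 lists it was 0.455 to 0.545, 0.437 to 0.558, 0.277 to 0.382, 0.560 to 0.743 and 0.259 to 0.407. With peaks of at least the median width the ratio to the rest of the genome was 0.321, 0.406 and 0.376, and 0.305, 0.249, 0.110, 0.285 and 0.105. Leaving out 1 list gave 0.372 to 0.388 and 0.451 to 0.479 for CTCF and SMC1 in fibroblasts, and 0.362 to 0.383, 0.331 to 0.363, 0.157 to 0.215, 0.377 to 0.405 and 0.148 to 0.192 in DN3 cells. Of all these ratios, none reached 1 in any setting run. Rbfox1 was the one named gene to turn, with a log2 difference of 0.28 without scaling and 0.063 at equal list length in fibroblast CTCF. The cause of these differences was not tested. Read depth is not in the lists and limits every absence of a peak.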
